A study of Mus musculus with 8 samples.

Results

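Potassium channel subunits were examined in RNA-seq counts from the choroid plexus of mouse embryos at day E18.5. The choroid plexus is the tissue in the brain ventricles whose epithelium secretes cerebrospinal fluid. The members were all rows of the count table whose gene symbol starts with Kcn, leaving out Kcnj8 and Kcnq1ot1, which gave 93 of 23284 genes. They comprised 40 voltage-gated pore subunits, 14 inward rectifiers, 14 two-pore domain subunits, 8 calcium- and sodium-activated pore subunits and 17 auxiliary subunits. There were 4 groups of 2 libraries. Hindbrain sorted and telencephalic sorted libraries came from epithelial cells of the fourth and the lateral ventricle plexus that were purified by flow sorting for Ttr::RFP, a red reporter named for the transthyretin gene, from ICR (CD1) embryos. Hindbrain whole and telencephalic whole libraries came from whole plexus of CD1 embryos, for which the labels give no reporter. Both regions were taken from the same brains within a preparation, so sorted cells and whole tissue were never compared within a brain, and the sources used here do not say whether embryos were pooled. The study asked how plexus of different ventricles differs.

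Potassium channels let potassium cross membranes and so set the membrane voltage and the potassium content of the fluid beside it. Pore subunits assemble around a selectivity filter, and auxiliary subunits carry no pore but change how the pore opens, where it is placed or how much current it carries. In choroid plexus epithelium, the inward rectifier encoded by Kcnj13 sits in the membrane that faces the ventricle, and in mice the auxiliary subunit encoded by Kcne2 is known to join the pore subunits of Kcnq1 and Kcna3 there. Potassium that the sodium pump of that membrane brings into the cell can pass back through such channels.

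The signature of the pore is visible in the coding sequences. Classes had been set from the gene symbols, so the matches describe the classes and are no test of them. The longest coding transcript of each gene in GENCODE M21 (mouse build GRCm38) was translated in frame and searched for a threonine or serine, any residue, a glycine, then a tyrosine, phenylalanine or leucine, and a glycine, with overlapping matches allowed. All 76 pore subunits held a match and 0 of 17 auxiliary subunits did, against 5.41% of 21559 genes with a coding sequence. Every one of the 14 two-pore domain members held 2 or more matches, against 0.552% of all genes. Of the 40 voltage-gated members 2 did so as well, Kcna6 and Kcnh2. The stretches below are those of the pore subunits with the most reads and of pore subunits that differed between regions, with 3 codons on each side and the 5 signature codons in capitals, 5′ to 3′. Kcnk1, a two-pore subunit, is shown with both of its matches. Of the 2 matches of Kcnh2, the one at residue 626 is shown, whose residues are those of Kcnh1.
Kcnj13, from residue 119: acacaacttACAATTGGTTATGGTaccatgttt
Kcnk1, from residue 117: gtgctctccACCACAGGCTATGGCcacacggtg
Kcnk1, from residue 225: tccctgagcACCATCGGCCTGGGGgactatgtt
Kcnh1, from residue 463: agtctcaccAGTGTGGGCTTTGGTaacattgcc
Kcnh2, from residue 626: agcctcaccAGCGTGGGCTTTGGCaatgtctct
Kcnd3, from residue 367: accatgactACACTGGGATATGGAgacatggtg
Kcnd2, from residue 370: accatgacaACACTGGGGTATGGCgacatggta
Kcnt1, from residue 295: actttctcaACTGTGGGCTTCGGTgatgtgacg
The second Kcnk1 stretch carries a leucine codon where the other stretches have a tyrosine or phenylalanine codon. Kcnd2 and Kcnd3, whose levels ran in opposite regional directions in sorted cells (below), shared 29 of these 33 bases.

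The libraries held 8849053 to 31613434 counts, and values are given as CPM, counts scaled to each library's TMM-adjusted total, unless counts are named. Ttr, a marker of the epithelium, averaged 184765 CPM in hindbrain sorted, 269330 CPM in telencephalic sorted, 140052 CPM in hindbrain whole and 179491 CPM in telencephalic whole libraries. Markers of other cells were present in the sorted libraries. Summed over 12 endothelial markers, the level was 194 to 203 CPM in hindbrain sorted and 133 to 138 CPM in telencephalic sorted libraries, against 767 to 829 CPM in hindbrain whole and 778 to 787 CPM in telencephalic whole libraries. Because these are bulk libraries, fewer cells of a type and less RNA per cell cannot be told apart in any result that follows.

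Most potassium channel reads came from 3 genes in every library. Kcne2 took 48.5% to 57.1% of the summed CPM of the members, Kcnj13 took 16.2% to 31.7% and Kcnk1, a leak channel subunit, took 6.30% to 8.62%. Together they made up 80.5% to 87.1% of the members' CPM, which summed to 1639 to 1708 CPM in hindbrain sorted, 1860 to 1949 CPM in telencephalic sorted, 1484 to 1612 CPM in hindbrain whole and 1621 to 1627 CPM in telencephalic whole libraries.

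Kcne2 had 828 and 812 CPM in hindbrain sorted, 967 and 976 CPM in telencephalic sorted, 837 and 873 CPM in hindbrain whole, and 926 and 891 CPM in telencephalic whole libraries. The values of the telencephalic libraries lay above those of the hindbrain libraries in both preparations, and neither regional difference was called (log2 change -0.25 ± 0.10 SE in sorted cells and -0.09 ± 0.10 SE in whole tissue). Kcnj13 had 541 and 438 CPM in hindbrain sorted, 498 and 515 CPM in telencephalic sorted, 268 and 356 CPM in hindbrain whole, and 262 and 304 CPM in telencephalic whole libraries. Its regions overlapped in each preparation, while all sorted values exceeded all whole values. Kcnk1 averaged 130 ± 16.7 CPM in hindbrain sorted, 146 ± 29.2 CPM in telencephalic sorted, 107 ± 7.37 CPM in hindbrain whole and 119 ± 5.89 CPM in telencephalic whole libraries (SD, n = 2 each), and was called in none of the 5 comparisons. Per kilobase of exon, averaged over the 4 groups, the order was Kcne2 (503 CPM per kb), Kcnj13 (313 CPM per kb), Kcnk1 (56.0 CPM per kb), Kcnh2 (13.0 CPM per kb) and Kcnh1 (6.21 CPM per kb). In each group the means of these genes stood in that order.

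**Figure D1:**
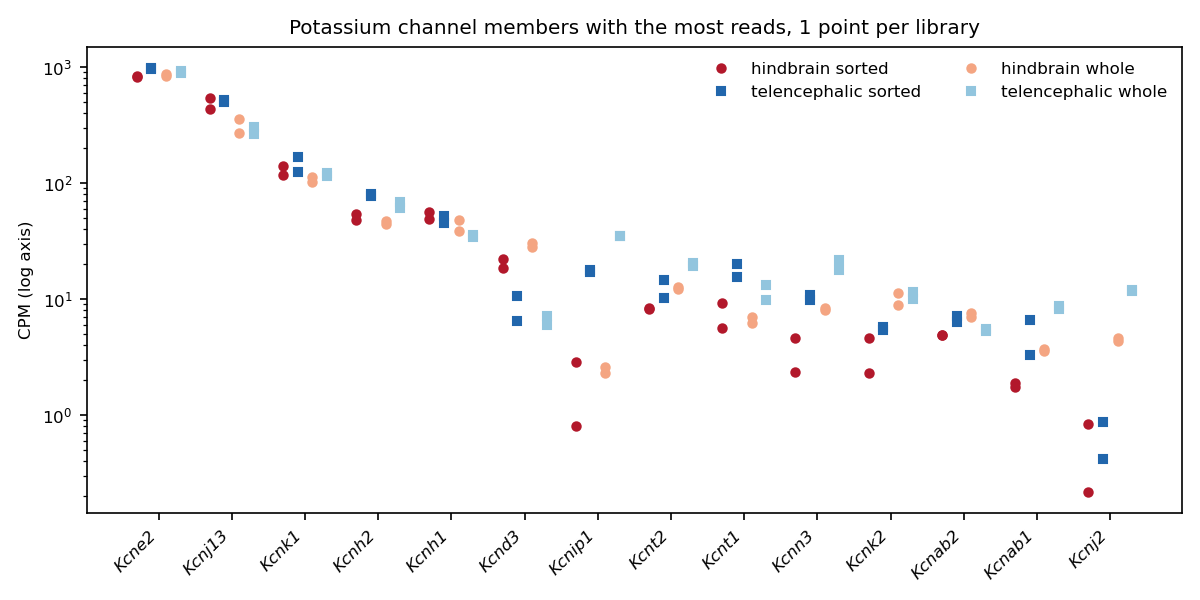
CPM on a log axis of 14 of the members with the highest means over the 4 groups, 1 point per library, with hindbrain sorted, telencephalic sorted, hindbrain whole and telencephalic whole libraries from left to right for each gene. Kcne2, Kcnj13 and Kcnk1 lie above the rest in every library, and Kcnip1 and Kcnj2 show the widest gaps between groups among those shown.

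Below these came Kcnh2, the pore subunit of the cardiac delayed rectifier that sets repolarization, and Kcnh1, its ether-a-go-go relative. Kcnh1 had 56.6 and 49.3 CPM in hindbrain sorted, 45.4 and 51.7 CPM in telencephalic sorted, 38.7 and 48.3 CPM in hindbrain whole, and 35.8 and 34.2 CPM in telencephalic whole libraries, with overlapping regions in sorted cells. Kcnab2, which encodes a beta subunit of Kcna channels, had 4.91 to 7.55 CPM over the 8 libraries and was called in none of the 5 comparisons.

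The partners that are known for Kcne2 in this epithelium had few reads. Kcnq1 had 1.16 and 1.58 CPM in hindbrain sorted, 0.567 and 0.806 CPM in telencephalic sorted, 1.13 and 1.23 CPM in hindbrain whole, and 2.08 and 2.51 CPM in telencephalic whole libraries. Kcnq1 overlaps the antisense transcript Kcnq1ot1, and the libraries mark no strand. For Kcna3 there were 5 and 2 counts in hindbrain sorted, 2 and 0 in telencephalic sorted, 9 and 4 in hindbrain whole, and 4 and 3 in telencephalic whole libraries, which is below the filter on low counts. Kcna1, a delayed rectifier pore subunit of the same family, had 1 to 17 counts per library and was also below it. Kcnn4, a calcium-activated pore subunit, had 0.218 to 0.806 CPM and was called in no comparison. Per kilobase of exon, Kcnq1 had 0.452 CPM in hindbrain sorted and 0.227 CPM in telencephalic sorted cells, beside 464 and 550 CPM per kb for Kcne2 in the same groups. Of the 93 members, 59 passed the filter and were tested. The other 34 had at most 33 counts in any library, and 2 of them, Kcna10 and Kcnk16, had none in any.

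Between regions in sorted cells, 14 of the 59 tested members (23.7%) were called at an adjusted p under 0.05 (edgeR quasi-likelihood test, Benjamini-Hochberg over 15698 genes), beside 15.2% of all genes tested. Kcnj12, Kcnj3, Kcna6, Kcnma1, Kcne4, Kcnq5 and Kcnd3 were higher in hindbrain cells, which is 7 members, beside 9.06% of all genes called higher. Another 7 were lower, among them Kcnd2, Kcnip1, Kcnn3, Kcnab1, Kcnt1 and Kcnh2, beside 6.12% of all genes called lower. The median log2 change of the tested members was -0.04, against 0.00 for all genes tested. Between regions in whole tissue, 7 members (11.9%) were called, beside 5.79% of all genes. Kcnd3, Kcnq5 and Kcnj12 were higher in hindbrain tissue (3.34% of all genes called higher) and Kcnip1, Kcnn3, Kcnab1 and Kcnh2 were lower (2.45% called lower). The median log2 change was 0.14 over the tested members and 0.01 over all genes. All 7 members called in whole tissue were also called in sorted cells, in the same direction. The 2 comparisons share no library, but they come from the same fit, whose spread is estimated over all 8 libraries, so their calls are not independent. The share of all genes called in both was not taken. With the brain as a replicate block, 13 members were called in whole tissue, 5 higher and 8 lower, adding Kcnma1, Kcnj3, Kcnj2, Kcnk13, Kcnt1 and Kcnt2. In sorted cells the block left the 14 calls as they were. Scaled by library totals, the whole-tissue calls were 4 higher and 2 lower. Fitting only the 4 libraries of each comparison gave 9 calls in sorted cells, beside 9.61% of all genes. In whole tissue the same fit gave 14 calls, beside 10.6% of all genes. Without any one of the whole libraries, 2 or 3 members were called in whole tissue: Kcnd3 and Kcnip1 each time, and Kcnq5 unless telencephalic whole replicate 1 was the one left out.

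Of 13 choroid epithelial markers, 3 were called higher and 3 lower in hindbrain sorted cells, with Ttr among the lower (median log2 change -0.15). Markers of other cells moved with region in the sorted cells. Of 13 macrophage markers, 13 were called higher in hindbrain sorted cells, and their summed level was 205 to 249 CPM in hindbrain sorted and 43.1 to 66.5 CPM in telencephalic sorted libraries. Of 12 mural markers, 7 were called higher and 0 lower, with sums of 203 to 213 CPM in hindbrain sorted and 69.3 to 80.7 CPM in telencephalic sorted libraries. Of 11 mesenchymal markers tested, 9 were called higher and 1 lower, with sums of 1411 to 1848 CPM in hindbrain sorted and 877 to 906 CPM in telencephalic sorted libraries, and of 12 endothelial markers 5 were called higher and 1 lower. Of 14 neuronal markers, 1 was called higher and 3 lower (median log2 change -0.66), and they summed to 36.6 to 38.7 CPM in hindbrain sorted and 30.9 to 31.2 CPM in telencephalic sorted libraries. Syt1 gave 29.1 CPM of the sum in hindbrain sorted and 11.5 CPM in telencephalic sorted cells on average. Without Syt1 the group means of the sum were 8.62 CPM in hindbrain sorted and 19.5 CPM in telencephalic sorted cells. In whole tissue 4 of 11 mesenchymal markers were called higher in hindbrain, with sums of 1604 to 1773 CPM in hindbrain and 1184 to 1366 CPM in telencephalic libraries, and the progenitor and glial sums were 131 to 145 CPM in hindbrain and 87.2 to 103 CPM in telencephalic libraries. There the mural sums were 318 to 362 CPM in hindbrain and 347 to 358 CPM in telencephalic libraries, the macrophage sums 249 to 252 CPM in hindbrain and 179 to 202 CPM in telencephalic libraries, and the neuronal sums 122 to 133 CPM in hindbrain and 71.4 to 79.6 CPM in telencephalic libraries. The part of these markers in the members that were higher in hindbrain was not tested.

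**Figure D2:**
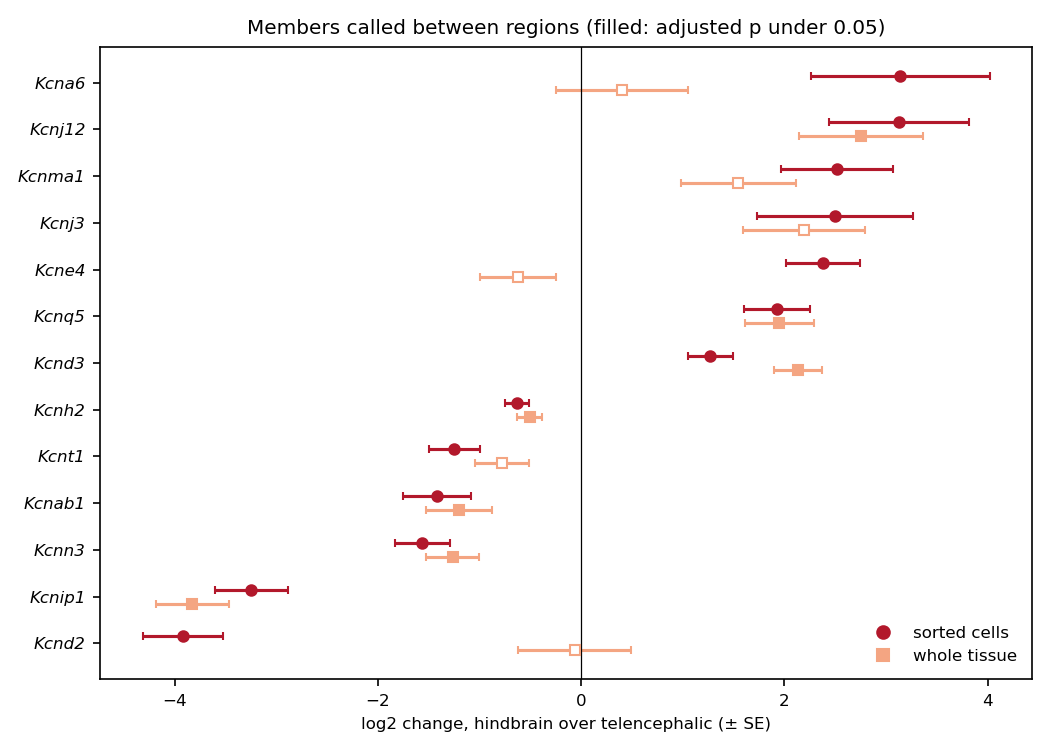
Log2 change of hindbrain over telencephalic libraries, with SE, for 13 members called in sorted cells (circles) or whole tissue (squares), ordered by the change in sorted cells; filled symbols passed the test. Kcnd2 and Kcne4 are the members for which the distance between circle and square was itself called.

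Genes of the rapidly inactivating, A-type channels were called in both regional directions. Kcnd1, Kcnd2 and Kcnd3 make pores of this type, and the calcium-binding proteins of the Kcnip genes bind these pores and raise their surface level. Kcnd1, Kcnip2, Kcnip3 and Kcnip4 were tested and called in neither regional comparison. Kcnd3 had 18.4 and 22.3 CPM in hindbrain sorted cells, against 6.50 and 10.5 CPM in telencephalic sorted cells. In whole tissue it had 30.2 and 28.0 CPM in hindbrain, against 7.15 and 5.97 CPM in telencephalic libraries. The regions did not overlap in either preparation, and hindbrain was higher (log2 change 1.27 ± 0.22 SE, adjusted p = 0.00190 in sorted cells, and 2.13 ± 0.23 SE, adjusted p = 0.000152 in whole tissue, edgeR). Kcnd3 overlaps the antisense gene Kcnd3os.

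Kcnip1 ran the other way. It had 0.80 and 2.86 CPM in hindbrain sorted cells, against 17.1 and 17.7 CPM in telencephalic sorted cells, and 2.58 and 2.31 CPM in hindbrain whole tissue, against 34.8 and 34.9 CPM in telencephalic whole tissue. All 4 telencephalic libraries lay above all 4 hindbrain libraries, and the log2 changes were -3.25 ± 0.36 SE (adjusted p = 6.54e-05) in sorted cells and -3.83 ± 0.36 SE (adjusted p = 5.32e-05) in whole tissue by edgeR. The 2 hindbrain sorted libraries differed from each other, at 22 and 78 counts.

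Kcnd2 had 18 and 11 counts in hindbrain sorted, 206 and 136 in telencephalic sorted, 8 and 9 in hindbrain whole, and 6 and 4 in telencephalic whole libraries. In CPM, the values were 0.655 and 0.403 in hindbrain sorted, 7.79 and 8.43 in telencephalic sorted, 0.322 and 0.425 in hindbrain whole, and 0.367 and 0.419 in telencephalic whole libraries. The telencephalic sorted libraries stood alone, and the other 6 libraries lay below 1 CPM. The regional log2 change was -3.92 ± 0.39 SE in sorted cells (adjusted p = 3.18e-05) and -0.06 ± 0.56 SE in whole tissue (adjusted p = 0.978, edgeR). Per kilobase of exon, Kcnd2 and Kcnd3 had 0.103 and 2.67 CPM in hindbrain sorted, 1.57 and 1.12 CPM in telencephalic sorted, 0.0725 and 3.83 CPM in hindbrain whole, and 0.0763 and 0.864 CPM in telencephalic whole libraries. On that scale the mean of Kcnd2 exceeded that of Kcnd3 in telencephalic sorted cells alone among the 4 groups. Dpp6, which encodes an accessory protein of the same channels and is no Kcn gene, averaged 2.08 CPM in hindbrain sorted and 0.939 CPM in telencephalic sorted cells (adjusted p = 0.0540, edgeR). In whole tissue Dpp6 averaged 8.06 CPM in hindbrain and 2.81 CPM in telencephalic libraries and was called (adjusted p = 0.0133, edgeR).

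**Figure D3:**
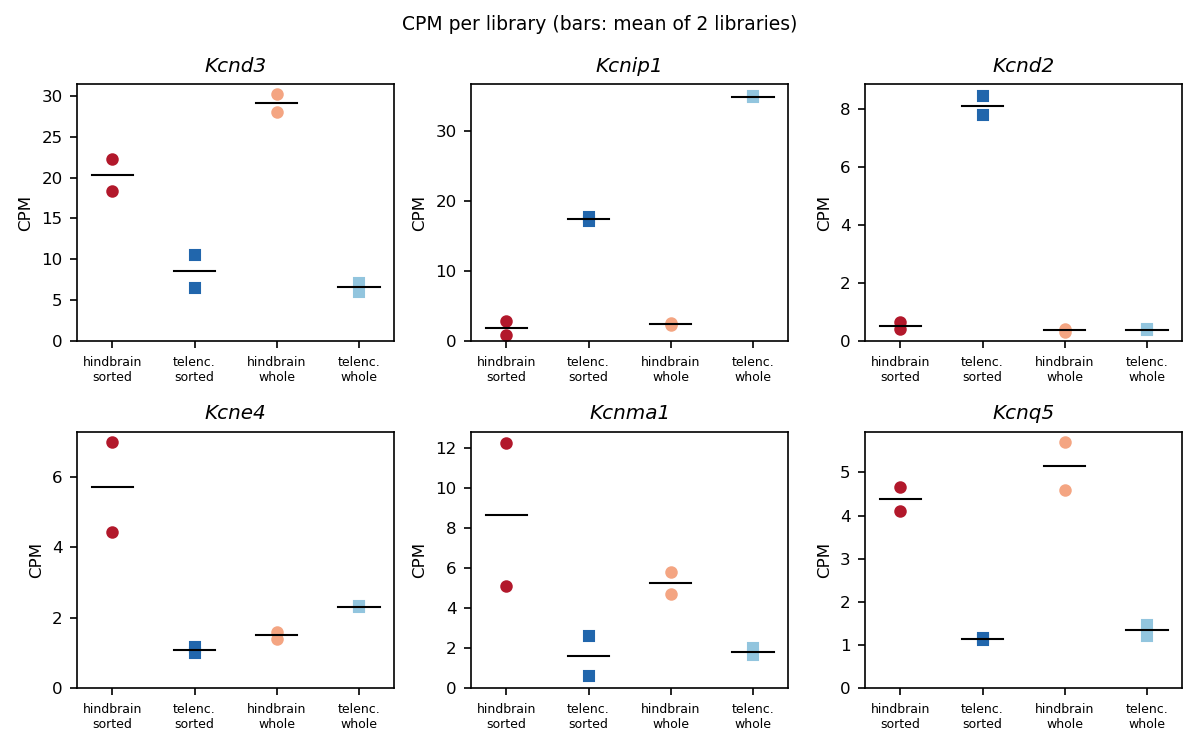
CPM of 6 regionally called members, 1 point per library with the group mean as a bar, in hindbrain sorted, telencephalic sorted, hindbrain whole and telencephalic whole libraries from left to right. Kcnd3 and Kcnq5 were higher in hindbrain and Kcnip1 in telencephalic libraries of both preparations, while Kcnd2 stood out in telencephalic sorted cells (7.79 and 8.43 CPM) and Kcne4 in hindbrain sorted cells (6.98 and 4.44 CPM).

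Among the other voltage-gated pore subunits, Kcnq5, which gives a slow, voltage-dependent current that muscarinic receptors inhibit, was higher in hindbrain. It had 4.65 and 4.11 CPM in hindbrain sorted cells, against 1.17 and 1.12 CPM in telencephalic sorted cells, and 4.59 and 5.71 CPM in hindbrain whole tissue, against 1.22 and 1.47 CPM in telencephalic whole tissue. The regions were well separated and the changes nearly equal in size, with log2 values of 1.93 ± 0.33 SE (adjusted p = 0.00167) in sorted cells and 1.95 ± 0.34 SE (adjusted p = 0.00395) in whole tissue by edgeR. Kcnh2 was lower in hindbrain. Its values were 48.4 and 54.4 CPM in hindbrain sorted cells, against 81.2 and 77.8 CPM in telencephalic sorted cells, and 44.7 and 47.3 CPM in hindbrain whole tissue, against 68.8 and 61.5 CPM in telencephalic whole tissue. The log2 changes were -0.63 ± 0.12 SE (adjusted p = 0.00365) and, in whole tissue, -0.50 ± 0.12 SE (adjusted p = 0.0295, edgeR). Kcnh2 had the smallest fold of the 14 called members. Its call in whole tissue was lost after scaling by library totals and without any one whole or telencephalic sorted library.

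Kcna6, a delayed rectifier subunit, had 13 and 61 counts in hindbrain sorted and 1 and 5 counts in telencephalic sorted cells, with a log2 change of 3.14 ± 0.88 SE (adjusted p = 0.0307, edgeR). That call was lost without hindbrain sorted replicate 2, telencephalic sorted replicate 1 or either telencephalic whole library, and in whole tissue Kcna6 had 2.34 and 3.35 CPM in hindbrain and 2.20 and 2.10 CPM in telencephalic libraries.

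The inward rectifiers that were called between regions had low counts. Kcnj12, a strong inward rectifier of muscle and neurons, had 28 and 19 counts in hindbrain sorted cells, against 3 and 1 counts in telencephalic sorted cells, and 48 and 49 counts in hindbrain whole tissue, against 5 and 3 counts in telencephalic whole tissue. Hindbrain was the higher region in both preparations (log2 change 3.13 ± 0.69 SE, adjusted p = 0.00899 in sorted cells, and 2.75 ± 0.61 SE, adjusted p = 0.0170 in whole tissue, edgeR). Kcnj3, a subunit of channels that G proteins open, had 16 and 15 counts in hindbrain sorted and 2 and 2 counts in telencephalic sorted cells, and 61 and 61 counts in hindbrain whole and 5 and 9 counts in telencephalic whole libraries. Its hindbrain values were above its telencephalic values within each preparation, with a call in sorted cells (adjusted p = 0.0460) and none in whole tissue (adjusted p = 0.0522, edgeR), and the sorted call was lost on leaving out any one library other than telencephalic whole replicate 1. The Kcnj12 call was lost in sorted cells without either telencephalic sorted library. Both genes had higher CPM in hindbrain whole tissue than in any sorted library. Of the 8 inward rectifiers tested, the other 6 were called between regions in neither preparation.

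The calcium- and sodium-activated pore subunits split by gene. Kcnma1, the large-conductance calcium-activated pore, had 5.09 and 12.2 CPM in hindbrain sorted cells, against 0.605 and 2.60 CPM in telencephalic sorted cells (log2 change 2.52 ± 0.55 SE, adjusted p = 0.00812, edgeR). The regions did not overlap, but the libraries of each differed from one another by over 2-fold, and the call was lost without telencephalic sorted replicate 1. In whole tissue it had 5.80 and 4.72 CPM in hindbrain and 1.65 and 1.99 CPM in telencephalic libraries, and was not called (adjusted p = 0.163, edgeR).

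Kcnn3, a small-conductance calcium-activated pore, had 2.36 and 4.62 CPM in hindbrain sorted cells, against 9.87 and 10.8 CPM in telencephalic sorted cells, and 8.02 and 8.35 CPM in hindbrain whole tissue, against 17.7 and 21.8 CPM in telencephalic whole tissue. Telencephalic libraries were the higher ones in each preparation (log2 change -1.57 ± 0.27 SE, adjusted p = 0.00197, and, in whole tissue, -1.27 ± 0.26 SE, adjusted p = 0.0114, edgeR). Kcnt1, a sodium-activated pore, had 5.67 and 9.21 CPM in hindbrain sorted cells, against 15.3 and 20.1 CPM in telencephalic sorted cells (log2 change -1.25 ± 0.25 SE, adjusted p = 0.00506, edgeR). In whole tissue Kcnt1 had 6.21 and 7.03 CPM in hindbrain and 9.78 and 13.1 CPM in telencephalic libraries (adjusted p = 0.127, edgeR). Its relative Kcnt2 had 8.25 and 8.40 CPM in hindbrain sorted and 10.2 and 14.7 CPM in telencephalic sorted cells, and 12.1 and 12.8 CPM in hindbrain whole and 19.2 and 20.4 CPM in telencephalic whole libraries. Neither regional comparison called Kcnt2 (adjusted p = 0.0734 in sorted cells and 0.0717 in whole tissue, edgeR), although its regions did not overlap in either preparation.

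Among the auxiliary subunits, Kcne4, which in expression systems inhibits channels made by Kcnq1, had 6.98 and 4.44 CPM in hindbrain sorted cells, against 1.17 and 0.992 CPM in telencephalic sorted cells (log2 change 2.38 ± 0.36 SE, adjusted p = 0.000793, edgeR). In whole tissue it had 1.41 and 1.60 CPM in hindbrain and 2.32 and 2.31 CPM in telencephalic libraries (log2 change -0.62 ± 0.37 SE, adjusted p = 0.476, edgeR). Hindbrain sorted libraries were the highest of the 8. Kcnab1, a beta subunit of Kcna channels, had 1.75 and 1.91 CPM in hindbrain sorted cells, against 3.33 and 6.57 CPM in telencephalic sorted cells, and 3.75 and 3.59 CPM in hindbrain whole tissue, against 8.19 and 8.70 CPM in telencephalic whole tissue. It was lower in hindbrain in both (adjusted p = 0.0132 in sorted cells and 0.0488 in whole tissue, edgeR). The sorted call was lost without telencephalic sorted replicate 2 and with only the 4 libraries compared. In whole tissue the call was lost after scaling by library totals and without any one whole library. Kcnab1 overlaps the gene A330015K06Rik on the other strand.

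Of the 7 two-pore domain members tested, edgeR called 0 between regions in either preparation with the settings used throughout. At an unadjusted p under 0.05 there was 1 in each, Kcnk2 in sorted cells and Kcnk13 in whole tissue. Kcnk13 was called in whole tissue by DESeq2 and, in edgeR, with the brain block, without the count filter, with only the 4 libraries compared or without either hindbrain sorted library. In sorted cells Kcnk13 was called without hindbrain sorted replicate 1 and Kcnk2 without hindbrain sorted replicate 2. The 8 members with a mean of at least 5 CPM that were called in neither regional comparison, among them Kcne2, Kcnj13, Kcnk1 and Kcnh1, had log2 changes of -0.69 to 0.13 in sorted cells and -0.67 to 0.42 in whole tissue.

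The regional change differed between sorted cells and whole tissue for 2 of the 59 members (edgeR interaction term), beside 1.34% of all genes tested, 1.10% with a positive and 0.242% with a negative term. The members' median term was -0.04, against 0.00 over all genes. For Kcne4 the hindbrain-over-telencephalic log2 change was greater in sorted cells than in whole tissue by 3.001 ± 0.52 SE (adjusted p = 0.0116). Kcnd2 had a term of -3.86 ± 0.67 SE (adjusted p = 0.0121). Each rests on 2 libraries per group. The Kcne4 call was lost without hindbrain whole replicate 1, telencephalic sorted replicate 1 or either telencephalic whole library, and the Kcnd2 call without hindbrain whole replicate 2, either telencephalic sorted or either telencephalic whole library.

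Most of the members called between sorted cells and whole tissue were lower in sorted cells. In hindbrain, 17 of 59 members (28.8%) were called between sorted cells and whole tissue, beside 22.1% of all genes tested. Kcne4 and Kcnj13 were higher in sorted cells, which is 2 members, beside 10.2% of all genes, and 15 were lower, beside 11.9% of all genes. In telencephalic plexus, 18 members (30.5%) were called, beside 22.4% of all genes. Kcnd2, Kcnj13 and Kcnh1 were higher in sorted cells, beside 9.88% of all genes, and 15 were lower, beside 12.5% of all genes. The median log2 change of the tested members was -0.52 in hindbrain and -0.46 in telencephalic plexus, against 0.01 over all genes in each. Called in both regions were 11 members, of which Kcnj13 was higher in sorted cells and Kcna5, Kcnb2, Kcne3, Kcnip3, Kcnj15, Kcnj2, Kcnj3, Kcnk2, Kcnn2 and Kcnn3 were lower. The share of all genes called in both regions was not taken. Kcnn2 had 1 count in each sorted group, and its call held in 3 of 12 alternatives in hindbrain and 4 of 11 in telencephalic plexus. Over the same comparisons, 12 of 12 endothelial markers were called lower in each region, as were 7 of 12 mural markers in hindbrain and 10 of 12 in telencephalic plexus. Macrophage markers were called lower in 2 of 13 in hindbrain (median log2 change -0.06) and 11 of 13 in telencephalic plexus. Of 11 mesenchymal markers, 2 were called lower and 1 higher in hindbrain, and 8 lower in telencephalic plexus; of 14 neuronal markers, 12 were called lower in hindbrain and 8 in telencephalic plexus. The part of these other cells in the members' changes was not tested. On leaving out 1 library, 9 to 21 members were called in hindbrain and 7 to 24 in telencephalic plexus. Called in hindbrain whichever library was left out were Kcna5, Kcnb2, Kcne3, Kcne4, Kcnj15, Kcnj2, Kcnk2 and Kcnn3, and in telencephalic plexus Kcnd2, Kcne3, Kcnj13, Kcnj15 and Kcnj2; each of the other calls was lost without at least 1 library.

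Kcnj13 was the epithelial pore subunit that rose with sorting in both regions. Its log2 change was 0.65 ± 0.15 SE in hindbrain (adjusted p = 0.00909) and 0.84 ± 0.15 SE in telencephalic plexus (adjusted p = 0.00193, edgeR), where that of Ttr was 0.40 ± 0.13 SE and 0.59 ± 0.13 SE. The median over 13 choroid epithelial markers was 0.22 in hindbrain and 0.34 in telencephalic plexus. Of these markers, 5 were called higher in hindbrain and 6 in telencephalic plexus, beside 10.2% and 9.88% of all genes, and 0 were called lower. Unlike Kcnj13, Kcne2 had log2 changes of -0.06 ± 0.10 SE in hindbrain and 0.10 ± 0.10 SE in telencephalic plexus, and neither was called. The ratio of Kcne2 to Kcnj13 counts was 1.53 and 1.85 in hindbrain sorted and 1.94 and 1.90 in telencephalic sorted libraries, against 3.12 and 2.45 in hindbrain whole and 3.53 and 2.93 in telencephalic whole libraries, so that every sorted library lay below every whole one. Kcnh1 rose in telencephalic plexus (log2 change 0.47 ± 0.15 SE, adjusted p = 0.0376, edgeR), a call lost when libraries were scaled by their totals and without any one of the telencephalic libraries. The hindbrain call of Kcnj13 was lost under that scaling too, and without hindbrain whole replicate 1.

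Kcnd2 rose in telencephalic sorted cells by 4.36 ± 0.45 SE on the log2 scale (adjusted p = 2.78e-05, edgeR), against 0.51 ± 0.47 SE in hindbrain. The 342 counts in the telencephalic sorted group stood against 10 counts in the telencephalic whole group. Kcne4 rose in hindbrain sorted cells by 1.92 ± 0.35 SE (adjusted p = 0.00230, edgeR), while its telencephalic change was -1.08 ± 0.39 SE and not called. The preparations came from different brains, and the sorted cells carried the reporter.

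**Figure D4:**
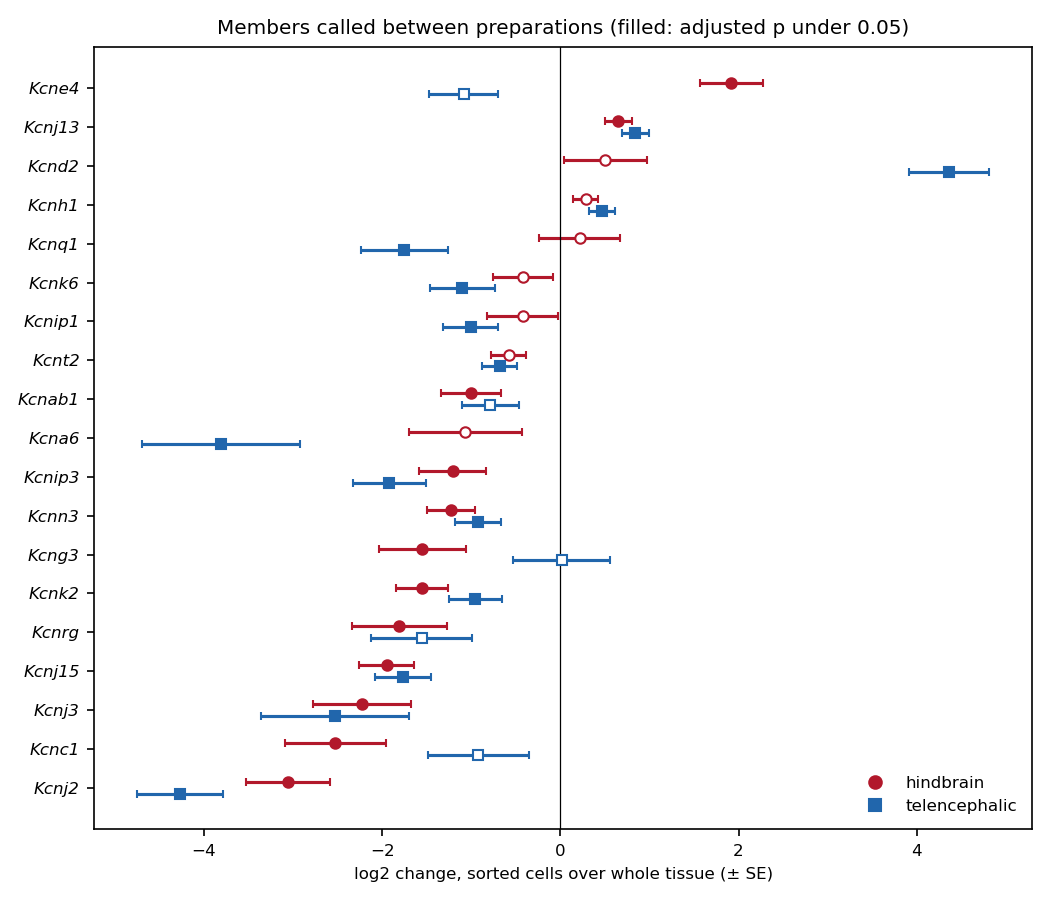
Log2 change of sorted cells over whole tissue, with SE, for 19 members called in hindbrain (circles) or telencephalic plexus (squares); filled symbols passed the test, and called members with 3 or fewer counts in a group of either region are left out. Kcnj13 was called higher in sorted cells in both regions, and Kcnd2, Kcnh1 and Kcne4 in 1 region each. Kcnd2 and Kcnh1 lie right of 0 in both regions, and most others lie to the left.

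Kcne3, an auxiliary subunit known from intestinal and tracheal epithelium, had 0 counts in all 4 sorted libraries, against 35 and 31 counts in hindbrain whole and 60 and 39 counts in telencephalic whole libraries. With a floor of 3 counts over the sorted group, it was at least 26.2-fold lower in hindbrain and at least 54.3-fold lower in telencephalic sorted cells. Kcna5, a delayed rectifier of the heart and of vascular smooth muscle, had 0 and 1 counts in hindbrain sorted and 0 and 0 in telencephalic sorted libraries, against 27 and 34 counts in hindbrain whole and 15 and 5 counts in telencephalic whole libraries. It was at least 10.96-fold lower in telencephalic sorted cells by the same floor. In hindbrain, the whole-over-sorted ratio of CPM was 72.6, with a counting interval of 12.5 to 2915.

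Kcnj2, a strong inward rectifier known in muscle and endothelium, had 0.218 and 0.844 CPM in hindbrain sorted cells, against 4.35 and 4.58 CPM in hindbrain whole tissue, and 0.416 and 0.868 CPM in telencephalic sorted cells, against 11.7 and 11.9 CPM in telencephalic whole tissue. Sorted values were the lower ones without overlap (log2 change -3.06 ± 0.47 SE, adjusted p = 0.000763 in hindbrain, and -4.26 ± 0.48 SE, adjusted p = 6.05e-05 in telencephalic plexus, edgeR). Kcnj15, another inward rectifier, had 1.31 and 1.61 CPM in hindbrain sorted cells, against 4.96 and 6.37 CPM in hindbrain whole tissue, and 1.89 and 2.42 CPM in telencephalic sorted cells, against 6.36 and 8.28 CPM in telencephalic whole tissue. Its log2 changes were -1.95 ± 0.31 SE (adjusted p = 0.000991) and, in telencephalic plexus, -1.77 ± 0.31 SE (adjusted p = 0.00180, edgeR). Kcnk2, a two-pore subunit that opens with membrane stretch, had 2.29 and 4.59 CPM in hindbrain sorted cells, against 11.2 and 8.92 CPM in hindbrain whole tissue, and 5.71 and 5.39 CPM in telencephalic sorted cells, against 11.5 and 9.95 CPM in telencephalic whole tissue, and fell in both (adjusted p = 0.00301 in hindbrain and 0.0359 in telencephalic plexus, edgeR).

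The remaining named members that fell with sorting were mostly below 5 CPM. Kcnip3, a calcium-binding protein that also represses transcription, averaged 1.99 ± 0.74 CPM in hindbrain sorted cells, against 4.60 ± 0.24 CPM in hindbrain whole tissue, and 1.23 ± 0.51 CPM in telencephalic sorted cells, against 4.82 ± 1.03 CPM in telencephalic whole tissue (SD, n = 2 each). Kcnb2, a delayed rectifier pore, had 9 counts in the hindbrain sorted group and 3 in the telencephalic sorted group, against 86 in the hindbrain whole group and 23 in the telencephalic whole group. Kcnj3 had log2 changes of -2.22 in hindbrain (adjusted p = 0.0128) and -2.53 in telencephalic plexus (adjusted p = 0.0452, edgeR). Its call held in 11 of 13 alternatives in hindbrain and in 6 of 12 in telencephalic plexus. Kcnc1, a fast delayed rectifier of neurons, fell by 2.53 in hindbrain (adjusted p = 0.00808, edgeR) and had a change of -0.92 in telencephalic plexus that was not called. Kcnrg, which encodes a soluble regulator of voltage-gated subunits, fell by 1.81 in hindbrain (adjusted p = 0.0285, edgeR) and had a change of -1.55 in telencephalic plexus that was not called. The hindbrain call of Kcnrg held in 8 of 13 alternatives. Members called lower in telencephalic but not in hindbrain sorted cells were Kcna6 (log2 change -3.81, adjusted p = 0.00914), Kcnq1 (-1.75, adjusted p = 0.0235), Kcnk6, a two-pore subunit (-1.10, adjusted p = 0.0480), Kcnip1 (-1.003, adjusted p = 0.0349) and Kcnt2 (-0.68, adjusted p = 0.0268, edgeR). In hindbrain, where none of these was called, the log2 changes were -1.06 for Kcna6, 0.22 for Kcnq1, -0.42 for Kcnk6, -0.42 for Kcnip1 and -0.58 for Kcnt2. The telencephalic calls of Kcnq1, Kcnk6 and Kcnip1 were lost without any one telencephalic library, that of Kcna6 without replicate 1 of either telencephalic group, and that of Kcnt2 without telencephalic sorted replicate 1 or either telencephalic whole library. Under DESeq2 the calls of Kcnk6 and Kcnip1 were lost too, and that of Kcnk6 also without either hindbrain whole library. Kcnt2 was also called lower in hindbrain under median-ratio size factors, library totals, no count filter or without either telencephalic sorted library. The difference between the regions in these sorting changes is the interaction term above, which was called for none of the members named in this paragraph.

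The genes that work with these channels were read beside them in a list of 29, of which 27 were tested. Between regions in sorted cells, 4 were called higher in hindbrain and 1 lower, and in whole tissue 4 were called higher and 0 lower, which is 5 of 27 in sorted cells, beside 15.2% of all genes, and 4 of 27 in whole tissue (14.8%), beside 5.79% of all genes. Abcc9, the sulfonylurea receptor subunit that joins inward rectifiers in mural cells, averaged 105 ± 16.4 CPM in hindbrain sorted and 19.9 ± 1.38 CPM in telencephalic sorted cells (SD, n = 2 each; adjusted p = 1.82e-06, edgeR), and 141 ± 24.5 CPM in hindbrain whole and 127 ± 6.40 CPM in telencephalic whole tissue. Slc12a2, the sodium-potassium-chloride cotransporter, averaged 691 CPM in hindbrain sorted, 734 CPM in telencephalic sorted, 745 CPM in hindbrain whole and 984 CPM in telencephalic whole libraries, and no regional comparison called it. With sorting, Slc12a2 was called lower in telencephalic plexus (log2 change -0.42 ± 0.13 SE, adjusted p = 0.0390, edgeR) and was not called in hindbrain. Fxyd1, a regulator of the sodium pump, averaged 462 CPM in hindbrain sorted and 433 CPM in telencephalic sorted cells, against 247 CPM in hindbrain whole and 163 CPM in telencephalic whole tissue, and rose with sorting in hindbrain (adjusted p = 0.00322) and in telencephalic plexus (adjusted p = 0.000132, edgeR). Between sorted cells and whole tissue, 2 of the 27 were called higher and 5 lower in hindbrain, and 4 higher and 5 lower in telencephalic plexus, which is 25.9% and 33.3% of the list, beside 22.1% and 22.4% of all genes.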

How the data were processed

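The deposited table holds raw counts of reads, listed by gene symbol for 8 libraries. Per the labels' protocols, cDNA was pre-amplified (Ovation V2 kit) before paired-end TruSeq library preparation, and neither step marks the strand. Build mm9, with Bowtie2 2.0.5, TopHat2 2.0.4, CASAVA 1.8.2, DESeq 1 and HTSeq, is listed per the submitters' processing notes; the annotation and the strand setting are not given there. Members and lists were chosen with earlier results of these data known. Genes passing edgeR's filterByExpr (minimum count 10, minimum total 15) numbered 15698. They were tested with edgeR 4.0.16 (R 4.3.3) quasi-likelihood tests on 4 group means over all 8 libraries with TMM scaling, two-sided, and called at a Benjamini-Hochberg adjusted p under 0.05. The sources call the libraries biological replicates. SE is the absolute log2 change divided by the square root of F. The code was tested on simulated data. Named were the 15 most-read members, every member called between regions or in the interaction, up to 8 per direction called with sorting at 1 CPM or more, and 9 with known roles here, 35 in all. Same-numbered regions share brains per the series' design text, and their deviations correlated at 0.193 in whole tissue and 0.145 in sorted cells. Alternatives were other scalings, DESeq2 1.42.0, no filter, the 4 libraries of a comparison alone, the brain block and leaving out each library. Exon lengths and coding sequences came from GENCODE M21 by symbol (93 of 93 members matched), so levels per kilobase use another annotation than the counts. In GENCODE M21, exons of Kcna6, Kcnj15, Kcnj3, Kcnk1, Kcnk2, Kcnma1, Kcnn2, Kcnq5 and Kcnt2 also overlap genes on the opposite strand. Intervals and floors cover counting error only. Results for some members and partner genes are not reported here.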

Additional observations from a re-analysis of the deposited data

Results flagged for a closer look

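The regional change of Kcnd2 differed between the preparations: the hindbrain-over-telencephalic log2 change in sorted cells minus that in whole tissue was -3.86 (adjusted p = 0.0121, edgeR interaction term). The telencephalic sorted libraries held 206 and 136 counts, and the highest of the other 6 libraries held 18. Kcne4 differed in the opposite direction, by 3.001 (adjusted p = 0.0116, edgeR). Its hindbrain sorted libraries held 192 and 121 counts, against 31 and 16 in telencephalic sorted, 35 and 34 in hindbrain whole and 38 and 22 in telencephalic whole libraries. Macrophage, mural and mesenchymal markers were also higher in hindbrain than in telencephalic sorted cells, which is the direction of Kcne4 and not of Kcnd2. Of 14 neuronal markers tested there, 1 was called higher and 3 lower, and of 10 progenitor and glial markers 4 and 2. Interaction terms were called in the neuronal and the progenitor and glial lists for Nefl and Pax6 alone (adjusted p = 0.0282 and 0.0358, edgeR). Both were negative, like that of Kcnd2. Positive terms, like that of Kcne4, were called for 4 of 13 macrophage, 3 of 12 mural, 2 of 11 mesenchymal and 3 of 12 endothelial markers. That stood beside 1.1% of all genes, and 0 markers of these 4 lists had a called negative term. The part of any of these markers in either difference was not tested.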

How the results depend on the processing

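No called result of a named member turned its direction under the alternatives that gave it a value, of which there were up to 14 between regions and up to 13 for the interaction and with sorting. Of the results of named members under alternatives, 2022 kept their side of the threshold, 122 lost a call and 58 gained one; over all members, 158 calls were lost or not given and 104 gained. The 7 members called between regions in whole tissue became 13 without the count filter, 14 when only the 4 libraries compared were fitted and 13 with the brain as replicate block, and 2 to 13 on leaving out 1 library: 3 without hindbrain whole replicate 1, hindbrain whole replicate 2 or telencephalic whole replicate 2, 2 without telencephalic whole replicate 1, and 13 without either hindbrain sorted library. Kcnd3 and Kcnip1 were called under all of them. The 14 in sorted cells became 9 when only its 4 libraries were fitted and 10 to 15 on leaving out 1, and Kcnd2, Kcnd3, Kcne4, Kcnh2, Kcnip1, Kcnn3, Kcnq5 and Kcnt1 were called throughout. The 2 interaction calls became 0 to 3, with 0 without either telencephalic whole library or telencephalic sorted replicate 1, and 1 without either hindbrain whole library or telencephalic sorted replicate 2. With sorting, the 17 hindbrain calls became 9 to 21 on leaving out 1 library, falling to 9 if hindbrain whole replicate 2 was dropped and to 11 for replicate 1 of that group or either telencephalic whole library, and the 18 telencephalic calls 7 to 24, with 7 to 10 when a telencephalic library was left out. Scaling by library totals moved the median of all genes by 0.20 between regions in sorted cells, by 0.12 in the interaction, by -0.32 with sorting in telencephalic and by -0.20 in hindbrain plexus; the calls with sorting were then 2 higher and 21 lower in telencephalic, and 1 higher and 20 lower in hindbrain plexus. The block changed no call in sorted cells or the interaction, and no block could be fitted between preparations, which came from different brains. Where an alternative moved a count, the cause was not tested. The 34 members below the filter were not tested; without the filter Kcnj5, 1 of them, was called between regions in sorted cells.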
